A study of Homo sapiens with 20 samples.

Results

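The replication-dependent histone gene cluster on the short arm of chromosome 6 was followed in H3K27ac chromatin immunoprecipitation sequencing of G401 cells. Its members were all peaks that overlapped by at least 1 bp one of the windows chr6:26.01-26.30 Mb and chr6:27.08-27.88 Mb of hg19, 1.09 Mb in all. These were 231 of 98251 peaks in GFP replicate 1, 223 of 79555 in GFP replicate 2, 232 of 145533 in SMARCB1 replicate 1 and 234 of 135472 in SMARCB1 replicate 2. Peaks that overlapped between libraries were merged, which gave 225 regions in the windows out of 167933 in the genome. The windows were set by position alone, so the presence, width and strength of the peaks were free to vary.

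G401 is an established rhabdoid tumour line, labelled SMARCB1(-/-), so that every library came from cells without an endogenous copy of SMARCB1, a core part of SWI/SNF, the complexes that remodel chromatin. Doxycycline induced GFP in the control arm and SMARCB1 in the other, and each arm had 2 H3K27ac libraries. The dose and length of induction were not given in the labels, and nothing said whether replicates came from separate cultures, so the spread between them may be technical. Chromatin was cut enzymatically. The series also holds H3K4me3, H3K4me1, SMARCA4 and input libraries, which were not analysed here.

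Replication-dependent histone genes encode the linker histone H1 and the core histones H2A, H2B, H3 and H4 that package new DNA, and they are transcribed mainly in S phase. Their transcripts have no poly(A) tail and end in a stem-loop bound by SLBP, and the genes gather in a nuclear body with the transcription factor NPAT. Acetylation of histone H3 at lysine 27 marks active promoters and enhancers. RefSeq (GRCh38.p14) lists 55 protein-coding histone genes of these classes on chromosome 6, of which 6 encode H1, 12 H2A, 15 H2B, 10 H3 and 12 H4. They were taken from the whole chromosome, so some may lie outside the windows. In order along the chromosome they form 4 runs: H2AC1 and H2BC1, then 32 genes from H1-1 to H4C8, then 5 from H2BC11 to H2AC12, and last 16 from H2BC13 to H2BC17. Between the runs lie 4, 9 and 5 other protein-coding genes in that order, and 1 more lies within the second run. Because that build differs from the one of the peaks, no gene was placed on a peak. Which of the blocks and regions below hold histone genes was therefore not determined. A difference at one of them cannot be read as a difference at a histone gene.

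The promoters of the 5 classes carry different short elements, shown here with 1 gene of each class. Each gene was chosen because its shown bases hold the most kinds of the searched motifs in its class. The sequences are therefore rich examples and need not be typical of their class. Each sequence is the 110 bases before the transcription start in RefSeq, read 5′ to 3′ on the gene's own strand, which is the minus strand for all 5. Capitals mark the motifs searched on both strands, and neighbouring or overlapping motifs run together.
H1-1: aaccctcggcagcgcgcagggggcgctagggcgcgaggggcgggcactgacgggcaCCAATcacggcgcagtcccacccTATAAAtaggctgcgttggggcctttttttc
H2AC17: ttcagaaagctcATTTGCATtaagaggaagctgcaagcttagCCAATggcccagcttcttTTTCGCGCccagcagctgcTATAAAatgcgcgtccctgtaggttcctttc
H2BC8: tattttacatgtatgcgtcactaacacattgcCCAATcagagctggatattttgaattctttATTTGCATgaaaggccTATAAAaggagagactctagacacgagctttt
H3C7: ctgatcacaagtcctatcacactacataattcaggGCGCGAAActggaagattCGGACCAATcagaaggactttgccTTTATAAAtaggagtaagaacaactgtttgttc
H4C13: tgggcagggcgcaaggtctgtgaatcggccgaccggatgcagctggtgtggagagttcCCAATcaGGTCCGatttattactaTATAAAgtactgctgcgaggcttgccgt
The TATAAA box, where the general transcription machinery assembles, was found within 250 bases upstream in 36 of 54 histone promoter entries (66.7%), against 10.7% of the 35116 promoters in the table. CCAAT, the element bound by NF-Y, was in 47 of 54 (87.0%, against 32.01%). All 44 entries of the other classes held it, but only 3 of the 10 H4 entries did. The octamer ATTTGCAT, bound by POU2F1 at H2B genes, was in 23 entries (42.6%, against 1.63%). It was almost confined to H2A (9 of 11) and H2B (13 of 17), with 1 of 10 H3 entries. GGTCCG, the core of the H4 element bound by HINFP, was in 9 of 10 H4 entries, 1 H3 entry and 9.43% of all promoters. The H3 entry is H3C7, where it lies on the other strand and overlaps CCAAT. TTTCGCGC, an E2F-type motif, was in 12 entries (22.2%, against 0.439%), 5 of H2A, 6 of H2B and 1 of H3. A match describes letters only, and H2A and H2B neighbours that face away from each other share the bases between them.

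Read depth was not in the files. Most of the authors' fold values lay on a ladder of equal steps. The step, taken as 1 fragment at a peak's summit, was 0.354, 0.211, 0.168 and 0.205 fold in the order GFP replicate 1, GFP replicate 2, SMARCB1 replicate 1 and SMARCB1 replicate 2, and 77.5% to 82.8% of the member peaks fell on it within 0.05 of a step. Fold values of different lists are therefore on different scales. Folds printed for several libraries describe each list on its own, and arms were compared in strength by rank alone. SMARCB1 replicate 1 stood apart in a comparison with a Poisson formula that took the background from the step and assumed unscaled counts. Among peaks on the ladder, 1.99% of its deposited -log10 p values matched within 0.05, against 93.4% to 96.0% in the other 3 lists. Its ladder also had an offset of 0.0285 fold. The mismatch may mean only that the formula's setting differs for this list, and does not show its p values to be faulty. What set this list apart was not tested, and the differences without it are 7 peaks and 2.74 kb of covered length (6 and 14.1 kb with it). SMARCB1 lists were also 1.58 times as long on average as GFP lists. With 2 libraries in each arm, the exact two-sided permutation test over libraries cannot give a p below 0.333.

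The cluster was dense in acetylation without SMARCB1 and stayed so with it. In the first window, 45.1% and 47.3% of the sequence lay under a peak in the GFP libraries and 56.6% and 52.8% in the SMARCB1 libraries. The second window was covered over 17.8%, 17.96%, 17.3% and 15.8% of its length in the same order. Over the genome, coverage was 2.80% to 4.15%, and over the 0.78 Mb between the windows it was 3.96% to 5.59%. Member peaks were also wider than usual, with a median of 549, 610, 624 and 628 bp against 379 to 415 bp over the whole lists. These medians were higher in both SMARCB1 libraries (579.5 ± 43.1 bp against 626 ± 2.83 bp, SD, n = 2 each, exact permutation p = 0.333). They were closer together as well: the gap to the next peak was under 300 bp for 46.8%, 54.3%, 57.3% and 51.7% of members, against 40.1% to 42.3% of all peaks.

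**Figure D1:**
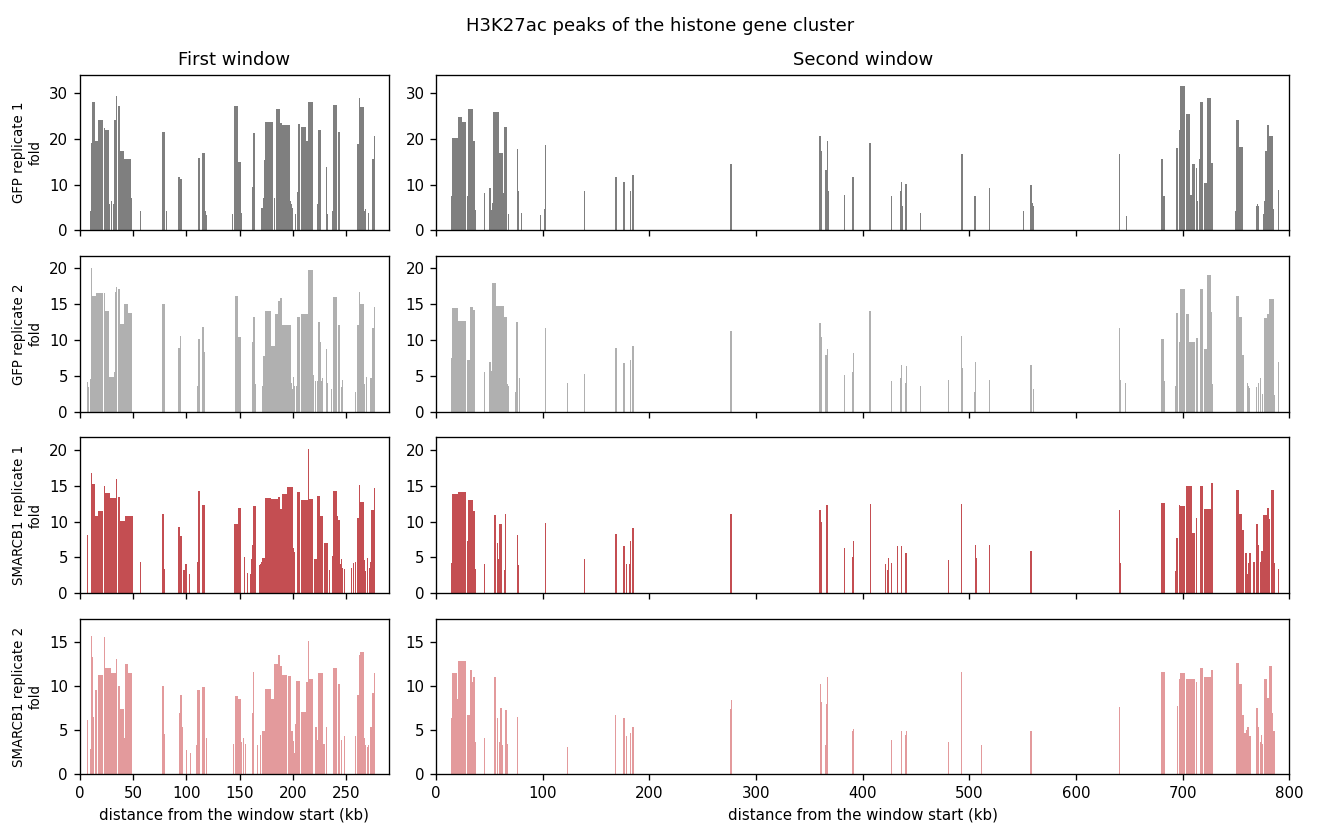
Each panel draws the H3K27ac peaks of 1 library as bars from their start to their end (x axis, distance from the start of the window in kb) with the authors' fold enrichment as height (y axis, each library on its own linear scale from 0). The first window has long blocks of peaks along most of its length, with gaps within them. The second has dense blocks near both ends and scattered peaks between them.

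The number of peaks in the cluster hardly differed between arms, whereas the lists did. GFP libraries held 231 and 223 member peaks (227 ± 5.66, SD, n = 2) and SMARCB1 libraries 232 and 234 (233 ± 1.41, n = 2). The arms did not overlap, but the ratio was 1.03 against 1.58 over the whole lists (difference 6, exact permutation p = 0.333). Members made up 0.235% and 0.280% of all GFP peaks, against 0.159% and 0.173% of all SMARCB1 peaks. When every list was shortened to its 79555 strongest peaks, 205 and 223 members were left in the GFP lists and 180 and 173 in the SMARCB1 lists, which is the opposite direction. With peaks within 1 kb of each other joined, the mean difference was -6.5. The sign of this small difference thus depended on the length of the lists and on how close peaks were counted.

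The windows went opposite ways. The first window had 98 and 96 peaks with GFP and 110 and 117 with SMARCB1 (97.0 ± 1.41 against 113.5 ± 4.95, SD, n = 2 each, exact permutation p = 0.333). The second had 133 and 127 with GFP and 122 and 117 with SMARCB1 (130.0 ± 4.24 against 119.5 ± 3.54, exact permutation p = 0.333). In neither window did the arms overlap. Covered length followed the same order: 130.7 and 137.2 kb against 164.0 and 153.1 kb in the first window, and 142.7 and 143.7 kb against 138.6 and 126.8 kb in the second. The first window was thus covered 24.6 kb more with SMARCB1 and the second 10.5 kb less, with no overlap of the arms in either (exact permutation p = 0.333 each). Summed over both windows the arms overlapped, at 273.4 and 280.9 kb with GFP and 302.7 and 279.9 kb with SMARCB1 (277.1 ± 5.27 against 291.3 ± 16.1, n = 2 each, exact permutation p = 0.667). The ratio of covered length, 1.18 in the first window and 0.927 in the second, was below the genome's 1.30 in both. In the stretch between the windows it was lower still, at 0.831. Coverage there was 41.9 ± 2.42 kb with GFP and 34.8 ± 5.56 kb with SMARCB1, with no overlap (exact permutation p = 0.333). Lower coverage with SMARCB1 was thus not particular to the second window. Peaks of 2 kb or wider in both windows together numbered 42, 47, 50 and 42, and the arms overlapped.

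**Figure D2:**
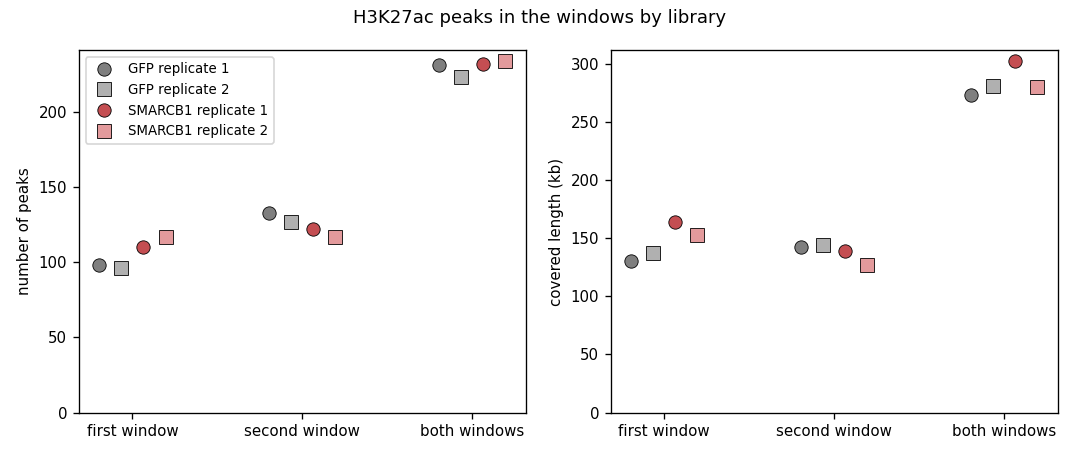
Points are libraries, with circles for replicate 1 and squares for replicate 2, grey for GFP and red for SMARCB1. The left panel gives the number of H3K27ac peaks and the right panel the covered length in kb (both axes linear from 0), and both SMARCB1 points lie above both GFP points in the first window and below them in the second.

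Acetylated places in the cluster were shared by all libraries more often than those of the genome. Of the 225 merged regions, 111 (49.3%) had a peak in all 4 libraries, against 16.7% of all merged regions, and 77 (34.2%) had a peak in 1 library, against 49.9%. A region is called gained here when it had a peak in both libraries with SMARCB1 and in no GFP library, and lost in the opposite case. By that rule 11 regions (4.89%) were gained, against 17.5% over the genome, and 10 (4.44%) were lost, against 3.94%. As a share of regions found in both SMARCB1 libraries, gained regions made up 8.46% in the cluster and 44.5% over the genome. Lost regions made up 7.94% of those found in both GFP libraries in the cluster and 17.2% over the genome. The first window had 9 gained and 3 lost of 99 regions, and the second 2 gained and 7 lost of 126. Between the windows, 3 of 73 regions were gained and 8 lost, and on chromosome 6 without the windows 18.7% were gained and 5.33% lost. The stretch between the windows lay between the cluster and the genome in sharing. There 25 regions (34.2%) had a peak in all 4 libraries and 29 (39.7%) in 1 library. Gained regions made up 9.68% of its regions found in both SMARCB1 libraries, near the cluster's 8.46%. A low share of gained regions was thus not particular to the cluster.

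**Figure D3:**
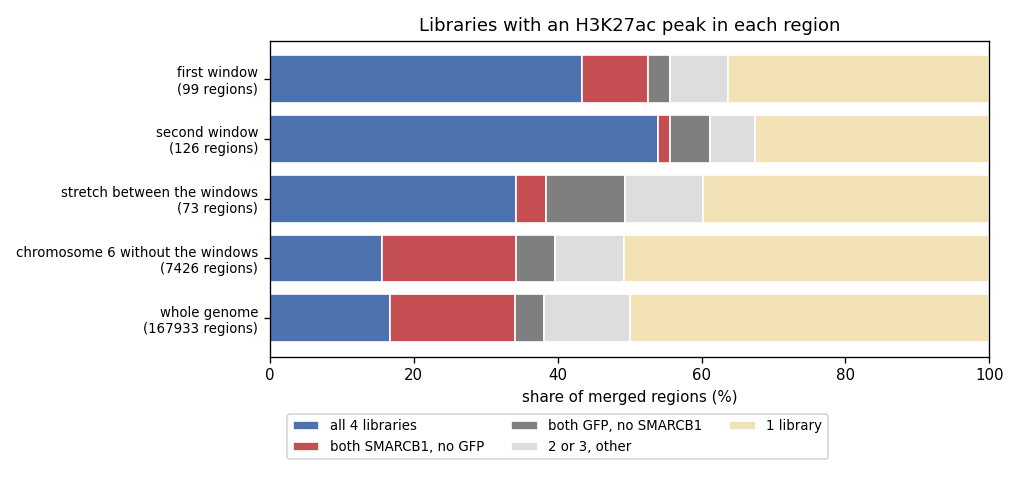
Stacked bars give the share of merged H3K27ac regions (x axis, percent) by the libraries that had a peak in them, for each window, the stretch between, the rest of chromosome 6 and the genome. The windows have the longest bars for regions in all 4 libraries, 43.4% and 54.0%, and short bars for regions present only with SMARCB1.

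The gained regions were short and mostly near a GFP peak. They were 227 to 759 bp wide, their fold values were between 2.44 and 4.90, and 9 of 11 lay within 500 bp of a GFP peak, against 17.0% of the 29359 gained regions of the genome. The densely covered windows leave few places far from a peak, so this closeness is a description of where they lay. The isolated one was chr6:27343237-27343595, with folds of 4.73 and 2.96 in SMARCB1 replicates 1 and 2, whose nearest GFP peak was 12238 bp away. The other beyond 500 bp was chr6:26131946-26132391, with folds of 3.89 and 4.30 and a GFP peak 1407 bp away. In all, 8 of the 11 lay in a single block of the first window, chr6:26153111-26287182. From its start these were chr6:26153880-26154574, chr6:26164858-26165134, chr6:26166517-26166866, chr6:26178309-26178730, chr6:26245283-26245982, chr6:26257581-26258339, chr6:26278455-26278681 and chr6:26279467-26280131. The last of the 11 was chr6:27503685-27504176, with folds of 4.90 and 3.48.

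Of the 10 lost regions, 8 lay within 500 bp of a SMARCB1 peak, against 31.4% of the 6624 lost regions of the genome. The farthest was chr6:27129826-27131382, which was 1557 bp wide with folds of 9.21 and 6.97 in GFP replicates 1 and 2, and its nearest SMARCB1 peak was 2525 bp away. It lay in the block of the second window whose coverage differed most between arms. The other beyond 500 bp was chr6:27118006-27118381, with folds of 4.01 and 3.59 and a SMARCB1 peak 814 bp away. Apart from the widest, the lost regions were 233 to 613 bp wide, with folds between 3.17 and 5.31. In the first window they were chr6:26089905-26090415, chr6:26177723-26177955 and chr6:26244515-26245127. The remaining 5 of the second window were chr6:27147704-27148255, chr6:27181308-27181674, chr6:27635435-27635825, chr6:27639701-27640208 and chr6:27764058-27764404.

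To see where coverage differed, merged regions less than 5 kb apart were grouped into blocks, a rule chosen after the peaks had been seen. The windows held 37 blocks, of which 8 were 20 kb or longer and together spanned 368.7 kb, 33.8% of the windows. Of these 8, 4 were covered more in both SMARCB1 libraries than in either GFP library, against 58.5% of such blocks over the genome, and 2 were covered less, against 18.4%. The median ratio of covered length was 1.05 over the 8 and 1.37 over the 3232 long blocks of the genome.

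In the first window all 3 long blocks were covered more with SMARCB1. The longest, chr6:26153111-26287182 (134.1 kb), had 79.0 and 84.4 kb under peaks with GFP and 104.8 and 95.6 kb with SMARCB1, a ratio of 1.23. Its 56 merged regions included 25 found in every library, and its peaks numbered 59, 59, 76 and 73. Some regions along it were covered more. Of these, chr6:26238040-26242856 had 2612 and 2760 bp under peaks with GFP and 4447 and 4418 bp with SMARCB1. Likewise, chr6:26232147-26237796 had 3735 and 4400 bp against 5499 and 5220 bp. In others the arms overlapped, as in the widest, chr6:26183927-26197527. One, chr6:26175887-26176847, was covered less, with 590 and 576 bp against 332 and 517 bp. The block chr6:26101284-26132391 (31.1 kb) had 10.9 and 11.3 kb with GFP and 16.7 and 16.5 kb with SMARCB1, a ratio of 1.49. Here chr6:26106418-26108762 had no peak in GFP replicate 1 and 200 bp in GFP replicate 2, against 2223 and 1627 bp in the SMARCB1 libraries. The block chr6:26016448-26068232 (51.8 kb) had 37.5 and 38.5 kb against 40.2 and 39.3 kb, a ratio of 1.04.

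In the second window, blocks near the start and the end differed in opposite directions. The block chr6:27124827-27148255 (23.4 kb) had 17.4 and 18.02 kb under peaks with GFP and 9.98 and 9.66 kb with SMARCB1, a ratio of 0.555 (17.7 ± 0.441 against 9.82 ± 0.230, SD, n = 2 each, exact permutation p = 0.333). Its main region, chr6:27131711-27143602, was covered over 11058 and 11553 bp with GFP against 7053 and 7144 bp with SMARCB1. The longest peak there was 5411 and 6895 bp with GFP against 2559 and 2607 bp with SMARCB1, so its longest peaks were shorter with SMARCB1. The next region, chr6:27143744-27146622, had 2879 and 2593 bp against 2150 and 1822 bp. At the far end, the block chr6:27829393-27871453 (42.1 kb) was covered over 22.8 and 24.9 kb with GFP and 32.1 and 30.1 kb with SMARCB1, a ratio of 1.30. Within it, chr6:27848285-27851738 went from 1436 and 1163 bp to 3088 and 3075 bp, and chr6:27833103-27843634 from 5667 and 6927 bp to 9890 and 9778 bp.

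The other long blocks of the second window hardly differed. Coverage of chr6:27772657-27814004 (41.3 kb) was 31.7 and 31.6 kb with GFP and 31.02 and 31.2 kb with SMARCB1, a ratio of 0.983 with no overlap of the arms. In chr6:27093959-27118381 (24.4 kb) it was 21.6 and 22.1 kb against 21.8 and 20.7 kb, and in chr6:27501336-27521833 (20.5 kb) 5.04 and 4.39 kb against 6.12 and 3.75 kb. In both of these the arms overlapped.

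**Figure D4:**
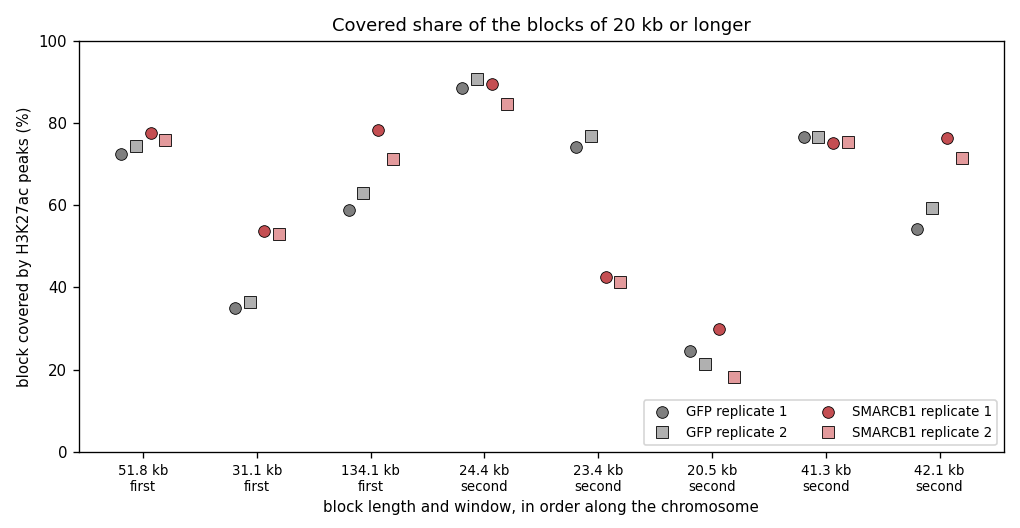
For each block of 20 kb or longer, in order along the chromosome with its length and window below, points give the share of the block under H3K27ac peaks (y axis, percent, from 0 to 100) in each library. Grey points (GFP) and red points (SMARCB1) change order between the blocks, with the widest separations in the 31.1 kb block of the first window and the 23.4 kb block of the second.

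Most short blocks in the second window were covered less with SMARCB1. Of the 21 blocks there that were under 20 kb and had a peak in every library, 14 were covered less in both SMARCB1 libraries, 2 more, and 5 overlapped. Over the genome, 30.8% of such blocks were covered less and 29.8% more. Their summed coverage was 43.4 and 42.0 kb with GFP and 37.0 and 30.8 kb with SMARCB1, and their median ratio was 0.810 against 0.984 over the genome's 8296. Among them, chr6:27154135-27160214 had 2.95 and 3.57 kb against 1.82 and 0.877 kb, and chr6:27177714-27183446 had 2.44 and 1.43 kb against 1.03 and 0.769 kb. Both follow on from the 23.4 kb block with the greatest loss. The 1 such block of the first window, chr6:26087267-26091692, was also covered less, with 3.16 and 2.91 kb against 2.15 and 1.71 kb.

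Counting by region divides up the same covered length, and the windows split in the same way. Among the 111 regions with a peak in every library, 28 were covered more in both SMARCB1 libraries (25.2%, against 30.3% of the 27997 such regions of the genome) and 33 less (29.7%, against 28.9%). The first window had 18 of 43 covered more and 5 less. The second had 10 of 68 covered more and 28 less. Summits of the 4 libraries lay within 200 bp of each other in 48 of the 111 regions (43.2%, against 36.3%), and their median span was 271 bp, against 357 bp. The windows differed here too. In the first, 13 of 43 regions (30.2%) had summits that close, with a median span of 405 bp. In the second, 35 of 68 (51.5%) did, with a median span of 199 bp.

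Strength was compared by the rank of a region's strongest peak among the 27997 regions found in every library, so that each library ranked the same regions. The 111 cluster regions stood high in all libraries: their median position was 30.9% and 26.6% from the top with GFP and 29.9% and 33.9% with SMARCB1, against about 50% for all regions by construction. The first window stood higher, with medians of 17.7%, 17.0%, 18.3% and 19.5% in the same order. The 68 regions of the second window had medians of 41.0%, 38.6%, 38.9% and 41.8%. The top 10% held 25 and 28 of the 111 with GFP and 20 and 14 with SMARCB1. Of these, 10, 11, 7 and 3 lay in the second window. With SMARCB1 that was 10.3% and 4.41% of its regions, against about 10% of all regions. In 40 of the 111 regions (36.0%) both SMARCB1 libraries ranked lower than both GFP libraries, against 30.5% over the genome. In 17 (15.3%) both ranked higher, against 28.1%. Over the 111 regions the median positions of the arms overlapped, and the difference in their means was 3.20 percentage points (exact permutation p = 0.667). The other rank measure went the opposite way. Among the 79555 strongest peaks of each list, the median rank of the member peaks was 20765 and 24455 with GFP and 19123 and 16549 with SMARCB1, nearer the top with SMARCB1 and with no overlap (22610 ± 2609 against 17836 ± 1820, SD, n = 2 each, exact permutation p = 0.333). That median was taken over 205 and 223 members against 180 and 173. At the top of the full lists the arms were apart: the 1000 strongest peaks included 10 and 12 members with GFP and 3 and 4 with SMARCB1 (exact permutation p = 0.333). Among the 20000 strongest they numbered 101 and 98 against 94 and 93.

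**Figure D5:**
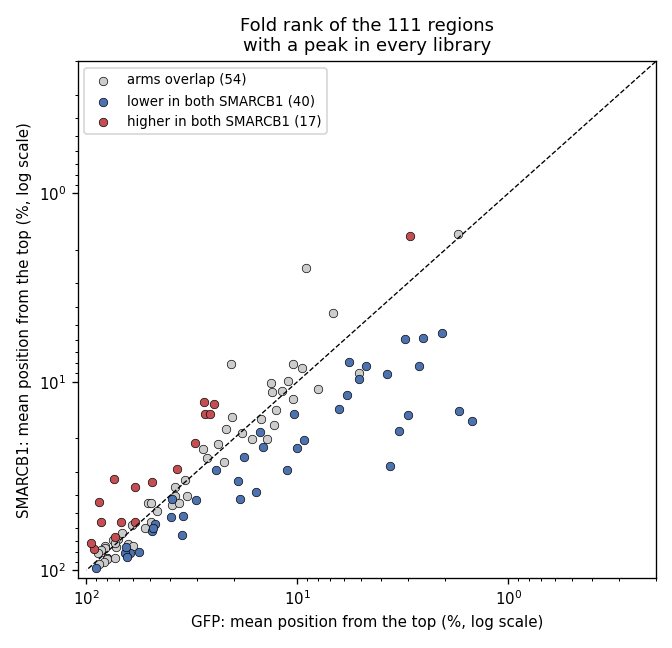
Each point is 1 of the 111 cluster regions with a peak in every library, placed by its mean position from the top among the 27997 such regions in the GFP libraries (x axis) and in the SMARCB1 libraries (y axis), both in percent on reversed log scales with the strongest at the upper right. Blue points, the 40 regions lower in both SMARCB1 libraries, gather below the dashed line of equality at the strong end, and 17 red points are higher in both.

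The 5 regions with the largest ratio of mean rank between arms, chosen in lists of equal length, were all lower with SMARCB1. Their ranks are given among the 27997 regions. For chr6:27799478-27806145 the ranks were 582.5 and 247 with GFP and 5079 and 3960.5 with SMARCB1. For chr6:27777815-27782505 they were 266 and 693 against 4453.5 and 3570, and for chr6:26154658-26158133 944.5 and 1093.5 against 8272 and 7345.5. The lost coverage at chr6:27131711-27143602 came with a lower rank too, at 1412.5 and 442.5 against 6200 and 4050. The fifth was chr6:26045602-26047494, at 980 and 693 against 2974 and 5447. Covered length went down with rank at chr6:27131711-27143602 and differed little in the other 4. Coverage of chr6:27799478-27806145 was 6537 and 6567 bp with GFP against 6659 and 6621 bp with SMARCB1, where its longest peak was 6659 and 6621 bp, compared with 3517 and 3546 bp with GFP. Coverage of chr6:26154658-26158133 was 3219, 3321, 3335 and 3196 bp, that of chr6:27777815-27782505 was 4505, 4686, 4499 and 4437 bp, and that of chr6:26045602-26047494 was 1858, 1828, 1854 and 1787 bp.

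The 10 regions with the highest lowest fold of the 4 libraries were chosen by their folds, so their folds are given as a description. Folds of different lists are on different scales, so this choice does not assure a high rank in each library. Of these, 9 lay in the first window and chr6:27829393-27832936 in the second. The first 2 of the 5 regions above, with folds of 29.04 and 19.003 against 11.8 and 11.1, and of 31.5 and 17.1 against 12.1 and 11.5, were not among them. The region chr6:26123343-26124215, with folds of 29.2 and 16.2 in the GFP libraries and 17.7 and 16.4 in the SMARCB1 libraries, had summits within 8 bp of each other and ranked higher in both SMARCB1 libraries, at 527.5 and 422 against 559.5 and 1083. It carried the strongest member peak of SMARCB1 replicate 2. For chr6:26224371-26232127 the folds were 28.0, 19.6, 20.2 and 15.1, and coverage was 5174 and 5998 bp with GFP against 7428 and 7147 bp with SMARCB1. This one held the strongest member peak of SMARCB1 replicate 1. For chr6:26020657-26021676 the folds were 19.2, 20.02, 16.8 and 15.8, and the ranks, 4966.5 and 138 against 808 and 591, differed more within the GFP arm than between arms. The strongest member peak of GFP replicate 2 lay there, and that of GFP replicate 1 at chr6:27777815-27782319, the second of the 5 regions above.

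Others of the 10 went the other way in rank. For chr6:26044165-26045479 the folds were 29.4, 17.3, 15.97 and 13.1, and the ranks 537 and 617 with GFP against 1160 and 1939.5 with SMARCB1. For chr6:26271768-26273055 they were 582.5 and 835.5 against 1632.5 and 1648. In chr6:27829393-27832936, the strong region at the start of the last block, folds were 24.0, 16.1, 14.5 and 12.7, with ranks of 2104.5 and 1093.5 against 2119 and 2304. Also among the 10 were chr6:26032494-26033878, with folds of 22.4, 16.5, 14.97 and 15.6, and chr6:26273181-26278223, with folds of 26.9, 14.99, 12.8 and 13.9. In both the arms overlapped in rank. The widest region of the cluster was chr6:26183927-26197527, at 13601 bp. It was covered over 13065, 13249, 13255 and 13095 bp, nearly its whole length in each library, with folds of 26.6, 15.4, 13.5 and 13.5. The next widest in the first window, chr6:26047525-26059550 and chr6:26021807-26032309 (the latter, like the widest, 1 of the 10), were covered over 11268 to 11908 bp and 10062 to 10398 bp. In both the arms overlapped in covered length. The widest ranked lower with SMARCB1, at 1159.5 and 1485 with GFP against 2974 and 1648. So did chr6:26021807-26032309, at 797.5 and 926 against 1528 and 1788, while the arms overlapped in rank at chr6:26047525-26059550.

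None of the cluster was marked as a super-enhancer in the authors' tables of stitched regions, which join neighbouring peaks away from transcription start sites. Those tables had 123 and 111 regions in the windows with GFP and 131 and 133 with SMARCB1. No region there carried the mark, against 3.37%, 3.35%, 5.55% and 5.02% of all regions of the tables. Most regions in the windows were single peaks with no joined neighbour: 110 of 123, 99 of 111, 119 of 131 and 123 of 133. Over the whole tables, 76.9%, 70.8%, 73.0% and 70.1% were single peaks. The joined regions in the windows held up to 11, 10, 11 and 10 peaks. Why none carried the mark was not tested. Between 22.4% and 28.7% of the member peaks lay in no stitched region of their own library, against 13.5% to 22.7% of all peaks. In the stretch between the windows the share was higher, at 40.0%, 33.9%, 33.3% and 38.0%, so it was not particular to the cluster. Member peaks outside stitched regions were the wider ones, with medians of 1204, 780.5, 1219.5 and 994 bp, compared with 484, 576, 539 and 451 bp for members in stitched regions.

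The window limits fell in gaps of the peak lists. The last peaks before the first window ended between 25993417 and 25993883, and the first peaks inside it started between 26016448 and 26017656. Peaks beyond its end started from 26300308 on. The last peak of the second window ended between 27871383 and 27871453, and the next began at 28046919 or later. No peak was therefore split by a limit.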

How the data were processed

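H3K27ac libraries from 2 GFP-induced and 2 SMARCB1-induced samples were analysed, grouped by the labels' induced gene and antibody target. Reads were aligned with BWA 0.7.12-r1039 to hg19, with SAMtools and bedtools also named, per the submitters' processing notes. Peaks were called with MACS2 on each library and then filtered, per the deposited peak names and file tags; version, control and filter rule were not given in the sources used here. The deposited fold enrichment is the authors' ratio of the summit over the caller's background, and the deposited -log10 p and -log10 q and the score of each peak are the authors' values too. They were used to rank, filter and describe peaks within a list. The authors' stitched tables come from ROSE, per the file headers. Each was matched to its library because 100% of its region starts were in that library's list, against at most 1.31% in another. Their signal and rank were not used, as regions with the same ID shared a signal, and 4 further columns of per-sample values matched no sample and were not used.

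Overlap was counted from 1 bp, peaks were merged genome-wide, and tied folds shared a mean rank (pandas 2.3.3 and numpy 2.4.6 under Python 3.11.15, figures with matplotlib 3.10.9). The exact two-sided permutation test took libraries as its units. The merging was tested on simulated data. Named regions were every gained and lost region, the 10 in all libraries with the highest lowest fold, the 5 widest, and the 5 with the largest ratio of mean fold rank between arms in lists of equal length; regions and short blocks named as examples within a block were chosen after their values were seen. The members and lists were chosen with earlier results of these data known. Alternatives were peaks with a -log10 q of at least 5, shorter lists, joined peaks, other window limits, 50% reciprocal overlap, left-out libraries and replicate pairing. The planned count of histone promoters with a peak, and the planned lists of other histone genes and histone gene factors, were not run, since the gene table used here is of another build. Promoter sequences are RefSeq's (GRCh38.p14), matched by symbol: 50 of 55 genes had an entry, and some had several, which gave 54.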

Additional observations from a re-analysis of the deposited data

How the results depend on the processing

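SMARCB1 minus GFP was 6 peaks as measured, but -37.5, -26 and -6 in lists cut to their strongest 79555, 40000 and 20000 peaks, -6.5 with peaks within 1 kb joined and -10.5 in the second window alone (2 to 10 leaving out each library in turn). The difference in covered length, 14.1 kb, became -1.25, -6.18 and -6.22 kb in those 3 shorter lists and -10.5 kb in the second window (2.74 to 25.5 kb leaving out a library). Without the 23.4 kb block that lost most, an alternative chosen after seeing the data, it was 22.0 kb with the arms apart. The difference in median width, 46.5 bp, was -219 bp (-218.75) with joined peaks, 264.5, 390.75 and 85.25 bp in the 3 shorter lists, 5.25 bp with windows extended by 50 kb and 16 to 77 bp leaving out a library. The median rank of members in lists of equal length differed by -4774 (nearer the top with SMARCB1; -6619 to -3487 leaving out a library), over fewer members with SMARCB1. It was 373 in the strongest 20000, and the position among regions common to all libraries, chosen after seeing the data, differed by 3.20 points the other way.

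Gained regions, 11 as counted (17.5% of all regions over the genome), were 4, 0 and 1 in the 3 shorter lists (genome 11.4%, 11.5% and 9.48%) and 2 with joined peaks (14.1%). They were 2 in the second window, 33 under a reciprocal overlap of 50% and 14 to 43 leaving out a library (19.3% to 47.7%). Lost regions, 10 as counted (3.94%), were 3 at a -log10 q of at least 5 (5.59%), 5 in the strongest 20000 (12.46%), 1 with joined peaks (2.57%), 3 in the first window, 24 under reciprocal overlap and 12 to 35 leaving out a library (4.92% to 15.3%). Regions in all libraries, 111 as counted (16.7%), were 64 in the strongest 20000 (47.8%), 44 with joined peaks (23.05%), 43 and 68 in the windows alone and 117 to 123 leaving out a library (20.5% to 21.5%). A left-out library loosens the rule for gained and lost regions. Otherwise the cause was not tested.

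With the replicate number as a block, the mean differences were the same 6 peaks (pairs 1 and 11, exact sign-flip p = 0.5), 14.1 kb (29.3 and -0.985 kb, p = 1), 46.5 bp and a rank of -4774; the labels do not say that equal numbers mark a shared culture, and with 2 pairs this test cannot go below 0.5. Depth was not in the files, so a missing peak may be a weak one.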
